A study of Mus musculus with 6 samples.

Results

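The genes described here are 40 genes of the unfolded protein response and of protein folding in the endoplasmic reticulum (ER), taken by name from a table of 22609 mouse genes. All 40 had a row in the table, Crebrf under its older symbol A930001N09Rik. The test covered 39 of them, among 12301 genes with enough reads. Derl3, a derlin of ER-associated degradation, had 4, 5 and 4 counts in the LRG1 libraries and 5, 4 and 6 counts in the PBS libraries, too few to test.

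The libraries came from primary hepatocytes, the main cell type of the liver, isolated from wild-type male C57BL/6 mice at 4 months of age. In 3 samples the cells had been kept for 16 h with LRG1 protein (leucine-rich alpha-2-glycoprotein 1, a secreted glycoprotein) at 20 µg/mL, and in 3 samples for the same time with phosphate-buffered saline (PBS). Polyadenylated RNA was sequenced, and reads were counted per gene. The labels do not state that the 3 samples of a treatment are separate mice or cultures. The p-values therefore reflect the spread among these samples alone, and that spread may be technical.

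Gene counts summed to 19670496 to 23036332 in the LRG1 libraries and to 18625748 to 19774537 in the PBS libraries. Levels are given as CPM, the counts of a gene scaled to a common library total. Among the tested members other than Creb3l1 the lowest count in any library was 187 and the highest 29859. The coefficient of variation over 3 replicates had a median over members of 3.31% with LRG1 and 4.57% with PBS, so small differences could pass the test. Differences between the treatments were common in these libraries: 51.4% of all tested genes passed the threshold, an adjusted p under 0.05 in edgeR's quasi-likelihood test. Over all tested genes the median log2 fold change was 0.0093.

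The unfolded protein response adjusts the folding capacity of the ER to the load of new secretory and membrane proteins, and hepatocytes carry a heavy load because they make most plasma proteins. It starts at 3 sensors in the ER membrane. IRE1, encoded by Ern1, splices Xbp1 mRNA into the form that encodes an active transcription factor. PERK, encoded by Eif2ak3, phosphorylates the initiation factor eIF2α, which slows translation in general but favours translation of Atf4. ATF6 moves to the Golgi, where proteases release its transcription factor domain. Their targets include ER chaperones, degradation factors and, downstream of ATF4, genes of amino acid supply. The present data are mRNA levels summed per gene, so splicing of Xbp1, phosphorylation of eIF2α and cleavage of ATF6 were not measured.

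Known promoter elements stand behind parts of this response, and their sequences in members are shown because they are the best-known link between members and the sensors. The ER stress response element, ERSE, has the letters CCAAT, then any 9 bases, then CCACG. Its CCACG end is bound by ATF6 and XBP1 with NF-Y at the CCAAT end. A search of both strands of RefSeq promoters (build GRCm38.p6, 250 bases before to 50 after a start) found it in 7 of the 33 members with a promoter entry. It was present in 0.119% of all 32851 promoters and in 0.137% of the 27025 genes that these promoters belong to. The lines below give 43 bases around each match, 5′ to 3′ on the strand that reads CCAAT first, with the CCAAT and CCACG ends in capitals.
Calr, chr8:84847063-84847105, plus strand: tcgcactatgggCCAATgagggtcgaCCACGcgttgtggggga
Canx, chr11:50325788-50325830, minus strand: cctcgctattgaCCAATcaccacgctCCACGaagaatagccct
Creld2, chr15:88819508-88819550, minus strand: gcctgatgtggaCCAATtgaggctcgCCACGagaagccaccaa
Derl3, chr10:75893230-75893272, minus strand: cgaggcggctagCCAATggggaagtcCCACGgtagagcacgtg
Ero1lb, chr13:12565670-12565712, minus strand: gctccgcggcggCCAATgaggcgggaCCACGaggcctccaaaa
Pdia6, chr12:17266479-17266521, plus strand: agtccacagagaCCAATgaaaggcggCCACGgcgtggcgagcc
Syvn1, chr19:6046520-6046562, plus strand: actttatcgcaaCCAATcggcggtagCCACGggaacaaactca

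Of these 7 genes, Calr passed the test as higher with LRG1 (all tested genes 25.5%) and Derl3 could not be tested. Canx, Creld2, Ero1lb, Pdia6 and Syvn1 did not pass, where 51.4% of all tested genes passed. A related element, ERSE-II, has the letters ATTGG, then any 1 base, then CCACG. It was found in 1 member, Herpud1, in 0.0365% of all promoters and in 0.0444% of all genes with a promoter. The letters TGATGNAAN are a short form of the C/EBP-ATF response element (CARE), to which ATF4 binds with C/EBP proteins. They were found in 2 members, Asns and Herpud1, in 3.95% of all promoters and in 4.5% of all genes with a promoter. Asns and Herpud1 were both lower with LRG1 (all tested genes 25.8%), and a link of this to the letters was not tested. The lines below give the 150 bases before the start of each on the gene's strand, with the CARE and ERSE-II letters in capitals.
Asns, chr6:7693210-7693359, minus strand: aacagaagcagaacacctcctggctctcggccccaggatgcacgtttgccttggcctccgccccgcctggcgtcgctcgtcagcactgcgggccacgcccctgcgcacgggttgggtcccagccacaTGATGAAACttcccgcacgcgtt
Herpud1, chr8:94386279-94386428, plus strand: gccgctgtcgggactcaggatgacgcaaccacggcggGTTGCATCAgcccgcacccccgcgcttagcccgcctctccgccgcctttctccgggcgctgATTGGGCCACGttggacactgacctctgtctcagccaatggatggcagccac

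In Asns the CARE letters lie 23 to 15 bases before the start. In Herpud1 they read on the opposite strand, 113 to 105 bases before the start, and the ERSE-II letters lie 52 to 42 bases before it. The letters TGACGTGG of the unfolded protein response element (UPRE) were found in Sec24d and Vcp, neither of which passed (all tested genes 51.4%). They were in 0.676% of all promoters and in 0.714% of all genes with a promoter. ERSE contains CCAAT and CCACG, and ERSE-II contains CCACG and, on the other strand, CCAAT. These 5-base ends are common by themselves: CCACG was in 32.8% and CCAAT in 37.4% of all promoters. Counted by gene, CCACG was in 35.5% and CCAAT in 41.1% of all genes with a promoter, and each was in 26 of the 33 members. The forms TGATGCAAT and TGATGAAAT, both cases of TGATGNAAN, were in no member promoter and in 0.192% and 0.231% of all promoters. A match to letters is not a measured binding site. Atf6, Creb3l1, Ppp1r15b, Derl1, Hyou1, Manf and Sec61a1 had no promoter entry and were not searched. For the other members, elements outside the searched window would have been missed.

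Hepatocytes given LRG1 did not move the set in a single direction. Of 39 tested members, 9 were higher (23.1%; all tested genes 25.5%), 11 were lower (28.2%; all tested genes 25.8%) and 19 did not pass. The share that passed, 51.3%, was close to the 51.4% of all tested genes, and so was the median log2 fold change of 0.02 to 0.0093. The groups did not overlap for 20 members, or 51.3%, against 57.6% of all tested genes. At least 1.5-fold differences were found for 5 members, where 18.1% of all tested genes had one. Of the 5, 2 were higher (7.49% of all tested genes) and 3 were lower (10.6% of all tested genes). A difference of at least 2-fold was found for 1 member, Creb3l1, against 9.5% of all tested genes. Of the 20 that passed, 10 differed by less than 1.25-fold. By role, 2 of 3 sensors, 4 of 8 transcription factors and 2 of 3 PERK arm genes were lower (all tested genes 25.8%). In the same roles, 0 sensors, 2 factors and 1 PERK arm gene were higher (all tested genes 25.5%). None of the 11 tested chaperones and folding enzymes in the set was lower, but 9 of 38 other folding genes were, Hspa5 among them.

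**Figure D1:**
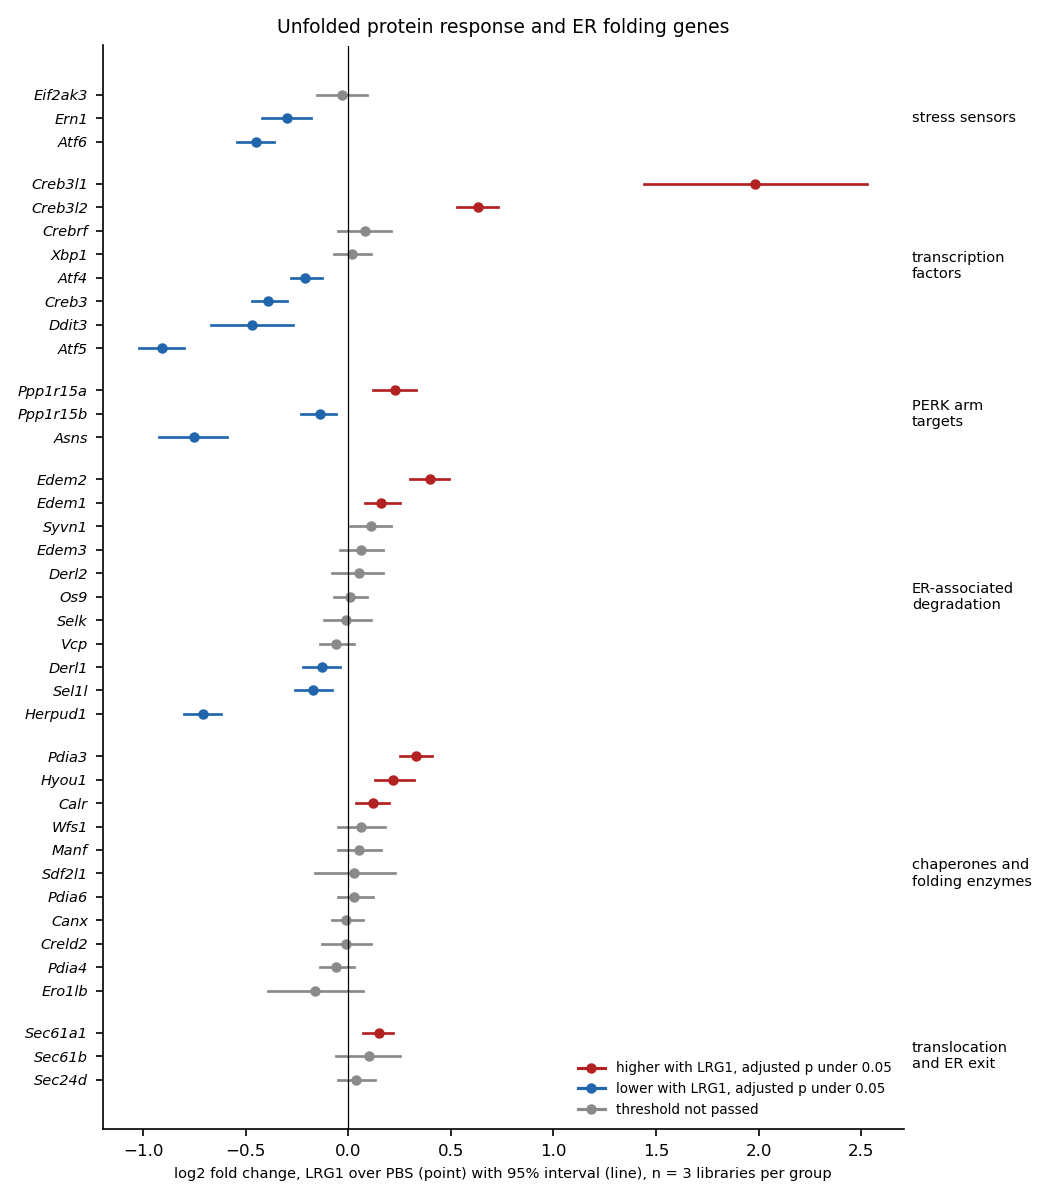
Log2 fold change of LRG1 over PBS for the 39 tested members (points) with 95% intervals (lines), ordered by role. Red members were higher, blue members lower and grey members did not pass an adjusted p of 0.05. Creb3l1 lies farthest to the right at 1.98 and Atf5 farthest to the left at -0.91, and no chaperone or folding enzyme is blue.

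Of the 3 sensors, Atf6 and Ern1 were lower (all tested genes 25.8%) and Eif2ak3 did not pass. Atf6 had 93.4, 97.8 and 90.8 CPM in LRG1 libraries, against 131.1, 127 and 128 CPM in PBS libraries (log2 fold change -0.45, SE 0.043, adjusted p = 3.73e-09). All LRG1 libraries lay below all PBS libraries, and the gap was several times the spread within a group. Ern1 had 37.4, 40.4 and 39.0 CPM with LRG1 and 48.2, 45.4 and 50.0 CPM with PBS (log2 fold change -0.30, SE 0.057, adjusted p = 0.000127). Its groups did not overlap either. Eif2ak3 had 57.9, 61.5 and 54.0 CPM with LRG1 and 56.9, 63.2 and 57.4 CPM with PBS. These groups overlapped, and the log2 fold change had a 95% interval of -0.15 to 0.09 (adjusted p = 0.668). In bulk RNA such as this, fewer cells of a type and less RNA per cell cannot be told apart.

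Of the 8 transcription factors, 4 were lower (all tested genes 25.8%), 2 were higher (all tested genes 25.5%) and 2 did not pass. Atf5, a bZIP factor of the ATF4 family whose translation rises when eIF2α is phosphorylated, had the lowest log2 fold change of all members. It had 147, 157 and 148 CPM with LRG1 and 306, 255 and 289.5 CPM with PBS (log2 fold change -0.91, SE 0.051, adjusted p = 3.42e-13). The lowest PBS library was still well above the highest LRG1 library. Atf4 itself had 235, 247 and 244 CPM with LRG1 and 282, 278 and 278 CPM with PBS (log2 fold change -0.21, SE 0.037, adjusted p = 6.09e-05). The groups were apart but the difference was small, 1.15-fold. Ddit3, which encodes the pro-apoptotic factor CHOP, had 9.31, 11.1 and 10.4 CPM with LRG1 and 14.7, 14.1 and 14.0 CPM with PBS (log2 fold change -0.47, SE 0.094, adjusted p = 0.000206). Every LRG1 library was below every PBS library at these low levels.

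Xbp1 did not pass. It had 285, 269.8 and 274 CPM with LRG1 and 261, 288 and 268 CPM with PBS, and the groups overlapped (95% interval of the log2 fold change -0.07 to 0.11, adjusted p = 0.695). Crebrf, a regulator of CREB3, did not pass either, with 35.0 ± 1.33 CPM with LRG1 and 33.0 ± 1.92 CPM with PBS (SD, n = 3 each).

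The 3 CREB3-type factors, which like ATF6 are held in the ER membrane until cleaved, moved in opposite directions. Creb3l2, known in cartilage cells for driving genes of the secretory pathway, had 103, 105 and 101 CPM with LRG1 and 66.2, 63.3 and 69.8 CPM with PBS (log2 fold change 0.63, SE 0.047, adjusted p = 5.47e-11). Creb3l1, known for collagen expression in bone, had low counts, with 62, 46 and 54 counts with LRG1 and 12, 12 and 13 counts with PBS. That is 3.09, 1.99 and 2.72 CPM with LRG1 and 0.607, 0.647 and 0.690 CPM with PBS (log2 fold change 1.98, SE 0.26, adjusted p = 9.02e-07). For both genes all LRG1 libraries were above all PBS libraries. Creb3 averaged 117 ± 2.39 CPM with LRG1 and 153 ± 5.51 CPM with PBS (SD, n = 3 each; log2 fold change -0.39, adjusted p = 3.34e-08). Its exons overlap those of Gba2 and Tln1 on the opposite strand, and Gba2 was at 33.3 ± 0.133 CPM with LRG1 and 9.53 ± 1.33 CPM with PBS. Since the strand setting of the counting is not given in the sources used here, reads of such partners cannot be told apart. The liver member of this family, Creb3l3, was not in the 40-gene set. It averaged 105 ± 3.52 CPM with LRG1 and 75.3 ± 2.47 CPM with PBS (log2 fold change 0.48, adjusted p = 3.79e-09). Creb3l4, at 1.53 ± 0.365 CPM with LRG1 and 0.632 ± 0.273 CPM with PBS, also rose (log2 fold change 1.29, adjusted p = 0.00132).

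Fibroblasts and stellate cells express Creb3l1, so their markers are given here. The summed level of 10 stellate cell and fibroblast markers was 157 to 168 CPM in LRG1 libraries and 59.7 to 68.2 CPM in PBS libraries. Of the 8 tested markers, 2 were higher (Col1a1 and Acta2), 1 was lower (Reln) and 5 did not pass. The collagen genes Col1a2 and Col3a1 were among those 5 (log2 fold changes -0.09 and -0.17). Among all tested genes 25.5% were higher and 25.8% were lower. Col1a1 accounted for 112, 114 and 104 CPM of the LRG1 sums and for 13.7, 9.22 and 10.6 CPM of the PBS sums. Without it the other 9 markers summed to 53.0 to 54.8 CPM with LRG1 and 49.1 to 54.5 CPM with PBS. Lrat, which marks quiescent stellate cells, had 0, 1 and 0 counts with LRG1 and 11, 4 and 5 counts with PBS. The part of these cells in the Creb3l1 difference was not tested.

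**Figure D2:**
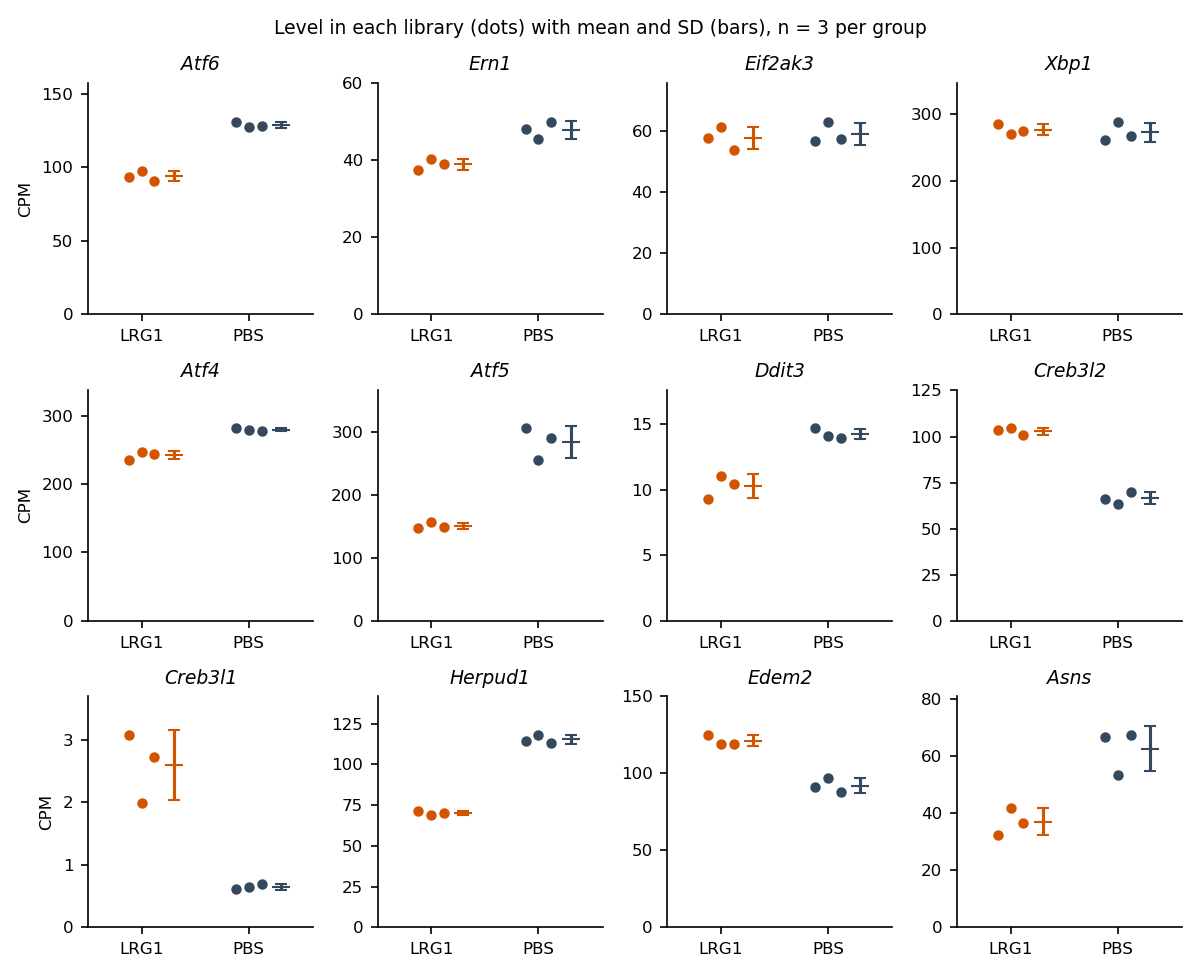
Level in CPM of 12 members in each LRG1 library (orange dots) and each PBS library (dark blue dots), with the mean and SD of 3 libraries at the right of each group. Each panel has its own axis from 0. The groups overlap for Eif2ak3 and Xbp1 and are apart in the other 10 panels, with LRG1 above PBS for Creb3l1, Creb3l2 and Edem2.

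The PERK arm was further represented by 3 members, of which 2 were lower (all tested genes 25.8%) and 1 was higher (all tested genes 25.5%). Asns, the enzyme that makes asparagine and a classical ATF4 target, had 32.5, 41.8 and 36.7 CPM with LRG1 and 66.6, 53.5 and 67.6 CPM with PBS (log2 fold change -0.75, SE 0.082, adjusted p = 3.90e-08). The groups did not overlap, although replicates spread more than for most members. Ppp1r15a and Ppp1r15b encode regulatory subunits of the phosphatase that removes the phosphate from eIF2α, the first inducible by stress and the second constitutive. Ppp1r15a averaged 55.8 ± 0.709 CPM with LRG1 and 47.7 ± 0.516 CPM with PBS (log2 fold change 0.23, adjusted p = 0.000570). Ppp1r15b went the other way, with 139 ± 5.14 CPM with LRG1 and 153 ± 2.52 CPM with PBS (log2 fold change -0.14, adjusted p = 0.00485). Both differences were under 1.25-fold.

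Members of ER-associated degradation, which returns misfolded proteins to the cytosol for the proteasome, passed in both directions at shares near those of all genes. Of 11 tested, 2 were higher (18.2%; all tested genes 25.5%), 3 were lower (27.3%; all tested genes 25.8%) and 6 did not pass, and the median log2 fold change was 0.01. Herpud1, an ER membrane protein of the ubiquitin ligase complex that is strongly induced by ER stress, had 71.5, 69.1 and 70.5 CPM with LRG1 and 114.7, 118 and 113 CPM with PBS (log2 fold change -0.71, SE 0.043, adjusted p = 1.45e-12). Its replicates agreed closely and the groups were far apart. Edem2, a mannosidase that starts the trimming of glycans on misfolded glycoproteins, had 125, 119 and 119 CPM with LRG1 and 91.2, 97.1 and 87.7 CPM with PBS (log2 fold change 0.40, SE 0.045, adjusted p = 9.85e-08). Its groups were apart in the opposite direction. The related Edem1 averaged 187 ± 6.99 CPM with LRG1 and 167 ± 4.93 CPM with PBS (log2 fold change 0.16, adjusted p = 0.00180), and Edem3 did not pass (log2 fold change 0.06, adjusted p = 0.319).

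The core ligase of this pathway, HRD1, is encoded by Syvn1 and works with the adaptor Sel1l. Sel1l averaged 116 ± 4.48 CPM with LRG1 and 130.3 ± 5.07 CPM with PBS (log2 fold change -0.17, adjusted p = 0.00277). Syvn1, at 99.8, 92.2 and 87.8 CPM with LRG1 and 85.8, 84.7 and 89.1 CPM with PBS, missed the threshold (log2 fold change 0.11, adjusted p = 0.0697). LRG1 replicate 3 lay within the PBS range, and without that library the log2 fold change was 0.15 with an adjusted p of 0.0237. Derl1, a derlin of the channel through which substrates leave the ER, averaged 97.8 ± 0.941 CPM with LRG1 and 107 ± 3.22 CPM with PBS (log2 fold change -0.13, adjusted p = 0.0146). Without PBS replicate 2 its adjusted p was 0.0628. Derl2, the lectin gene Os9, Selk (a selenoprotein of the derlin complex) and Vcp (the ATPase that pulls substrates from the membrane) did not pass, with log2 fold changes of 0.05, 0.01, -0.01 and -0.06. Of the Vcp transcript, 40.5% of 50-base windows also occur in a transcript of another gene, so its count may be incomplete.

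Of the 11 chaperones and folding enzymes tested, 3 were higher (27.3%; all tested genes 25.5%), none was lower (all tested genes 25.8%) and 8 did not pass. The median log2 fold change was 0.03. Pdia3, the disulfide isomerase that folds glycoproteins together with calnexin and calreticulin, had 1200, 1180 and 1238 CPM with LRG1 and 942, 1011 and 929 CPM with PBS (log2 fold change 0.33, SE 0.040, adjusted p = 2.32e-07). The groups were apart by more than their spread. Hyou1, a large chaperone of the HSP70 family, averaged 146 ± 0.524 CPM with LRG1 and 125 ± 7.50 CPM with PBS (log2 fold change 0.22, adjusted p = 0.000160). Calr, calreticulin, averaged 1301 ± 10.5 CPM with LRG1 and 1198 ± 44.3 CPM with PBS (log2 fold change 0.12, adjusted p = 0.0106). Its membrane-bound counterpart Canx, calnexin, averaged 648 ± 16.5 CPM with LRG1 and 652 ± 7.86 CPM with PBS (95% interval of the log2 fold change -0.08 to 0.07, adjusted p = 0.864). The disulfide isomerases Pdia4 and Pdia6, the secreted ER stress proteins Manf and Creld2, the chaperone cofactor Sdf2l1 and the ER membrane protein Wfs1 had log2 fold changes between -0.06 and 0.06. Ero1lb, an oxidase that recharges disulfide isomerases, varied most among PBS replicates, with a coefficient of variation of 16.2%, and its interval was the widest of the members that did not pass, -0.39 to 0.07.

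In the last role, entry into and exit from the ER, Sec61a1 was higher (all tested genes 25.5%) and 2 members did not pass. Sec61a1 forms the channel through which new proteins enter the ER. It averaged 307 ± 3.79 CPM with LRG1 and 277.5 ± 5.68 CPM with PBS (log2 fold change 0.15, adjusted p = 0.00199). Sec61b, a small subunit of that channel, had a log2 fold change of 0.10 (adjusted p = 0.293) and Sec24d, a coat subunit of vesicles that leave the ER, one of 0.04 (adjusted p = 0.442). For 18 of the 19 members that did not pass, the 95% interval lay within 1.2-fold in either direction, Ero1lb being the exception. A miss of the threshold by itself does not show equal levels.

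Compared per length, in CPM per kilobase of exon, the members spanned a wide range. The 2 highest were Calr, at 452 with LRG1 and 416 with PBS, and Pdia3, at 384 with LRG1 and 306 with PBS. Canx was at 138 with LRG1 and 139 with PBS, and Atf5 at 75.7 with LRG1 and 142 with PBS. With PBS only Calr and Pdia3 lay above Atf5, whereas with LRG1 it lay also below Canx, Atf4, Os9, Pdia6, Xbp1 and Pdia4 with LRG1. Atf4 was at 103 with LRG1 and 118 with PBS, and Xbp1 at 85.1 with LRG1 and 83.8 with PBS. The sensors were scarce: Atf6 was at 10.2 with LRG1 and 13.9 with PBS, and Ern1 at 4.76 with LRG1 and 5.86 with PBS. Creb3l1 was the lowest tested member, at 0.998 with LRG1 and 0.249 with PBS. These lengths are unions of annotated exons and need not equal the transcripts present.

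The wider pathway was covered by 6 lists of 199 other genes, 191 of them tested. Of these, 58 were higher, 56 were lower and 77 did not pass, and 59.7% passed against 51.4% of all tested genes. Their median log2 fold change was 0.02. The lists differed in their balance, and the genes named for each are those with the smallest p unless said otherwise.

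Genes of the ATF4 and amino acid response were mostly lower. Of 38 tested, 30 were lower (78.9%, against 25.8% of all tested genes), 3 were higher and 5 did not pass, with a median log2 fold change of -0.31. Of the 38 tested, 8 were lower by at least 1.5-fold, where 10.6% of all tested genes were. Most of the 30 differences were smaller than that. Gpt2, the mitochondrial alanine aminotransferase, averaged 170.3 ± 10.6 CPM with LRG1 and 605 ± 52.4 CPM with PBS (log2 fold change -1.83, SE 0.054, adjusted p = 2.44e-18). Psat1, an enzyme of serine synthesis, averaged 22.9 ± 3.20 CPM with LRG1 and 56.0 ± 8.89 CPM with PBS (log2 fold change -1.29, adjusted p = 5.94e-11). The list was not uniform. Ddit4, which encodes the mTORC1 inhibitor REDD1, averaged 177 ± 6.06 CPM with LRG1 and 52.8 ± 0.735 CPM with PBS (log2 fold change 1.74, adjusted p = 1.65e-19). Slc38a2, the amino acid transporter SNAT2, averaged 255 ± 8.31 CPM with LRG1 and 184.5 ± 3.96 CPM with PBS (log2 fold change 0.47, adjusted p = 5.71e-10). Families within the list were looked at after their values were known. All 6 enzymes of serine and one-carbon metabolism (Phgdh, Psat1, Psph, Shmt2, Mthfd2 and Aldh1l2) were lower, by log2 fold changes of -1.38 to -0.47. The 7 solute carriers were mixed, with 5 lower, Slc38a2 higher and 1 that did not pass (log2 fold changes -0.74 to 0.47). Among the 5, the call of Slc1a5 was lost under 8 of 15 alternatives. Of 12 aminoacyl-tRNA synthetases, 11 were lower and Cars did not pass, with log2 fold changes from -0.36 to 0.09, and the call of Iars was lost without LRG1 replicate 1 (adjusted p = 0.0523). Trib3, a pseudokinase induced by ATF4 and CHOP, was lower by a small amount (log2 fold change -0.18, adjusted p = 0.00557).

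**Figure D3:**
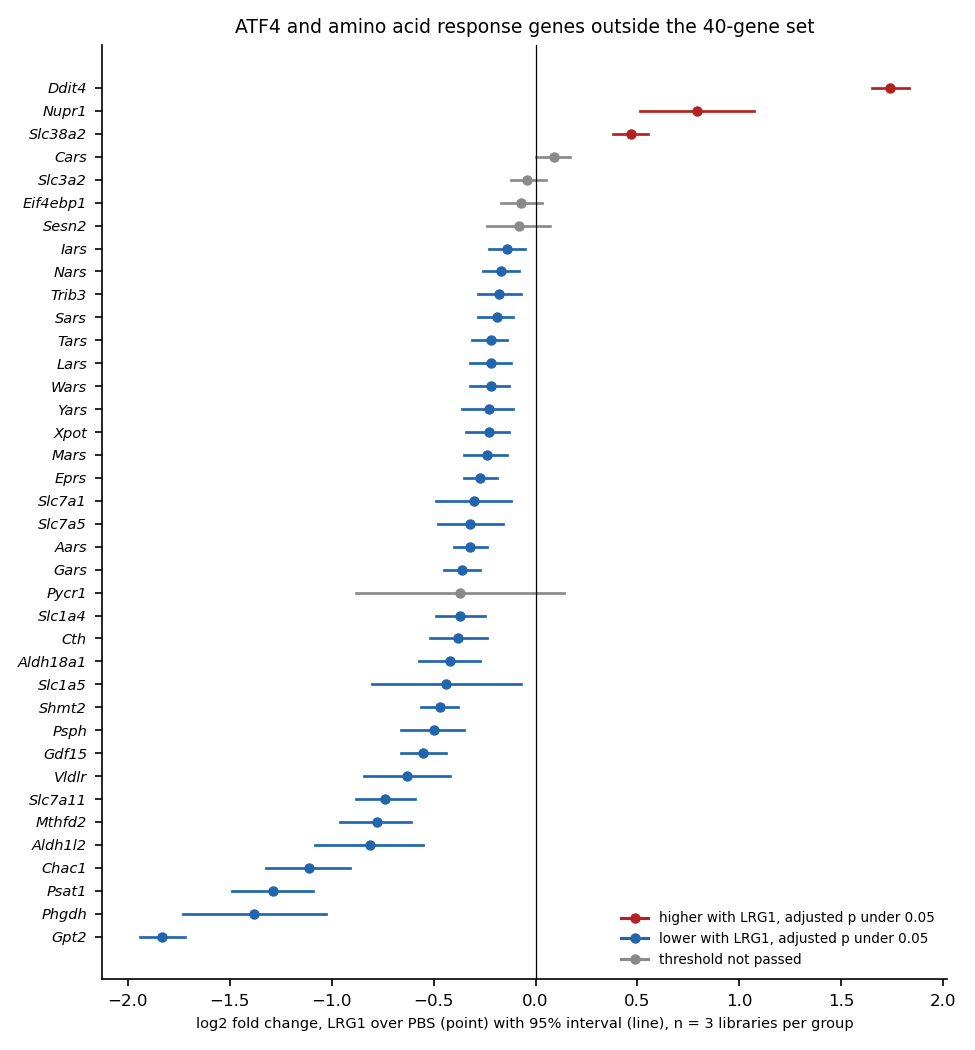
Log2 fold change of LRG1 over PBS (points) with 95% intervals (lines) for 38 genes of the ATF4 and amino acid response that are not among the 40 members. Of these, 30 were lower, and Gpt2 is lowest at -1.83. Ddit4, Nupr1 and Slc38a2 were higher.

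Of 20 other sensors, proteases and factors tested, 10 were higher (50%, against 25.5% of all tested genes) and 5 were lower (25%, against 25.8%). The other 5 did not pass, and the median log2 fold change was 0.14. Nfe2l2, which encodes the PERK substrate NRF2, averaged 202 ± 1.64 CPM with LRG1 and 392 ± 2.60 CPM with PBS (log2 fold change -0.96, adjusted p = 3.02e-16). Atf3, a stress-induced partner of ATF4 and CHOP, averaged 19.9 ± 1.29 CPM with LRG1 and 48.7 ± 2.66 CPM with PBS (log2 fold change -1.29, adjusted p = 8.56e-14). Bcl2l11, the pro-apoptotic BIM, averaged 31.7 ± 2.05 CPM with LRG1 and 11.5 ± 1.05 CPM with PBS (log2 fold change 1.46, adjusted p = 3.78e-13).

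Of 38 other folding genes tested, 8 were higher (21.1%, against 25.5% of all tested genes) and 9 were lower (23.7%, against 25.8%). The other 21 did not pass, and the median log2 fold change was 0.03. Without PBS replicate 1 the number higher was 5. Hspa5, the central ER chaperone BiP and a standard readout of the response, had 993, 977 and 1027 CPM with LRG1 and 1099.7, 1168 and 1100.4 CPM with PBS. All LRG1 libraries were below all PBS libraries, by a small margin (log2 fold change -0.17, 95% interval -0.25 to -0.09, adjusted p = 0.000761). Hsp90b1, the ER chaperone GRP94, averaged 623 ± 11.1 CPM with LRG1 and 597 ± 38.5 CPM with PBS (log2 fold change 0.06, adjusted p = 0.238), and passed without PBS replicate 2 (log2 fold change 0.12, adjusted p = 0.0170). Dnajb9, a BiP cochaperone and target of spliced XBP1, averaged 39.5 ± 3.07 CPM with LRG1 and 39.7 ± 0.406 CPM with PBS (95% interval of the log2 fold change -0.13 to 0.12, adjusted p = 0.944). Txndc5, a disulfide isomerase, rose (log2 fold change 0.41, adjusted p = 1.50e-09), as did the prolyl isomerase gene Fkbp9 (log2 fold change 0.26). Creld1 and the thioredoxin-like Txndc12 fell (log2 fold changes -0.61 and -0.34).

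For the other 33 tested genes of ER-associated degradation, 9 were higher (27.3%, against 25.5% of all tested genes) and 6 were lower (18.2%, against 25.8%). The remaining 18 did not pass, and the median log2 fold change was 0.00. The glycan-trimming mannosidase Man1a averaged 79.2 ± 3.52 CPM with LRG1 and 144 ± 8.87 CPM with PBS (log2 fold change -0.86, adjusted p = 3.80e-13). Ngly1, which strips glycans from retrotranslocated proteins, and Erlin1, of the erlin complex in the ER membrane, fell as well (log2 fold changes -0.61 and -0.31). The ubiquitin-conjugating enzyme gene Ube2j1 rose (log2 fold change 0.36, adjusted p = 6.82e-08).

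The 2 lists on entry into and exit from the ER held more genes that were higher than lower. In the translocon, signal peptidase and glycosylation list, 14 of 33 tested genes were higher (42.4%, against 25.5% of all tested genes), 2 were lower and 17 did not pass. Without LRG1 replicate 3 or without PBS replicate 1 the number lower was 1. The median log2 fold change of this list was 0.09. Spcs3, a subunit of signal peptidase, averaged 193 ± 10.5 CPM with LRG1 and 100.3 ± 4.82 CPM with PBS (log2 fold change 0.94, adjusted p = 3.42e-14). Sec63 of the translocon and Srpr, the receptor of the signal recognition particle, rose by smaller amounts (log2 fold changes 0.26 and 0.22), and the oligosaccharyltransferase subunit Stt3b fell (log2 fold change -0.27).

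In the list of coat and cargo proteins of ER-to-Golgi transport, 14 of 29 tested genes were higher (48.3%, against 25.5% of all tested genes). A further 4 were lower and 11 did not pass, with a median log2 fold change of 0.10. Without LRG1 replicate 2 the number higher was 9, and most of these differences were small. Mcfd2, part of the receptor that carries coagulation factors out of the ER, averaged 199 ± 5.45 CPM with LRG1 and 137 ± 2.41 CPM with PBS (log2 fold change 0.54, adjusted p = 4.56e-11). Sec16b of ER exit sites, the SNARE gene Gosr2 and the cargo receptor gene Surf4 rose as well (log2 fold changes 0.40, 0.37 and 0.28). The 3 KDEL receptors, which return escaped chaperones to the ER and were looked at after their values were known, had log2 fold changes of 0.73 (Kdelr3), 0.21 (Kdelr2) and 0.10 (Kdelr1). All 3 passed, but Kdelr1 only just (adjusted p = 0.0458), and its call was lost under 8 of 15 alternatives. Among these were each of LRG1 replicates 1, 2 and 3 and PBS replicates 1 and 2 left out (adjusted p = 0.0586 to 0.237), DESeq2 size factors in edgeR (adjusted p = 0.0545) and DESeq2 itself (adjusted p = 0.0823).

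**Figure D4:**
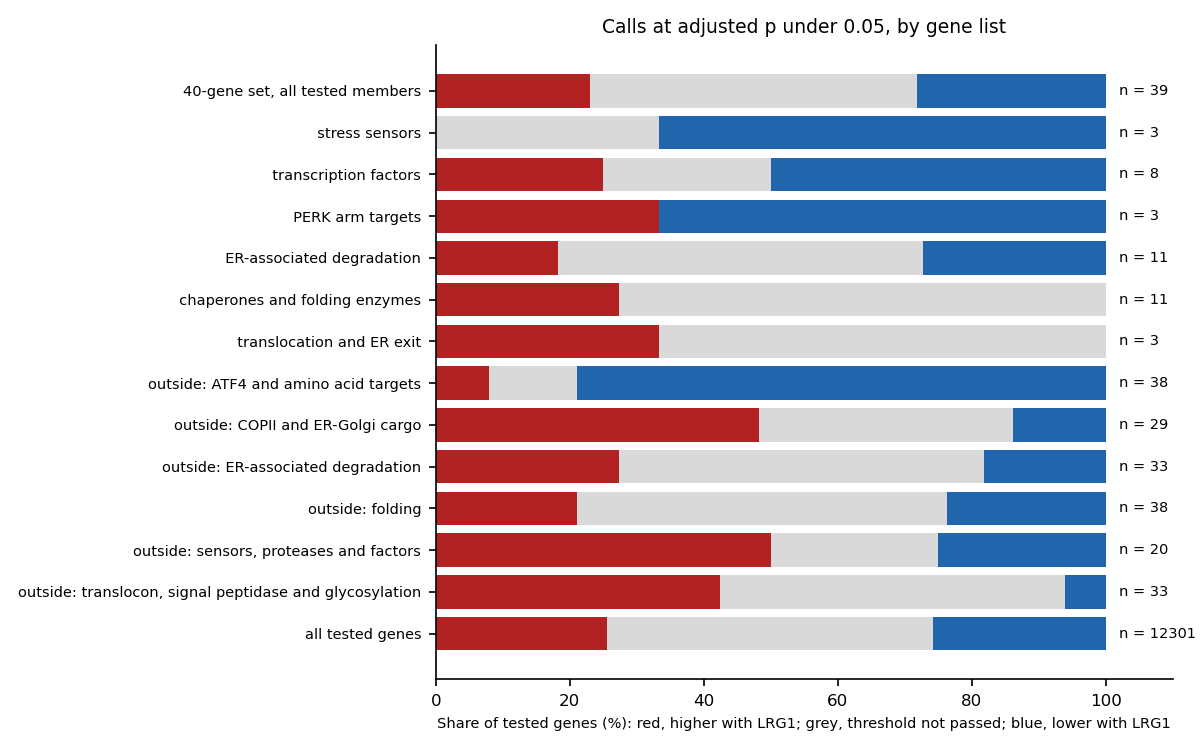
Share of tested genes that were higher with LRG1 (red), did not pass (grey) or were lower with LRG1 (blue), in percent, for the members by role, for the lists of other pathway genes (outside) and for all tested genes, with the number tested at the right. The bar of all 39 tested members resembles that of all 12301 tested genes, and the bar of ATF4 and amino acid targets has the widest blue part of the lists with more than 3 genes.

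Markers of the labelled cell type were abundant, with 8 hepatocyte markers summing to 21895 to 22804 CPM in LRG1 libraries and 22643 to 23648 CPM in PBS libraries. Alb, at 18141 to 18871 CPM with LRG1 and 18466 to 19737 CPM with PBS, made up most of these sums. Of the 8 markers, 4 were lower with LRG1 and 4 did not pass. Of all tested genes, 25.8% were lower and 25.5% were higher. Tat, an enzyme of tyrosine breakdown, averaged 1.19 ± 0.194 CPM with LRG1 and 9.20 ± 1.33 CPM with PBS (log2 fold change -2.94), and Cps1, of the urea cycle, 8.44 ± 1.58 CPM with LRG1 and 36.3 ± 2.81 CPM with PBS (log2 fold change -2.11). Apoa1 and Hnf4a were also lower (log2 fold changes -0.62 and -0.30). Kupffer cell and leukocyte markers summed to 184 to 210.1 CPM with LRG1 and 224 to 269.6 CPM with PBS (8 tested, 1 higher, 2 lower, 5 not past the threshold), and most of this was Cd68. Endothelial markers summed to 33.8 to 37.9 CPM with LRG1 and 40.1 to 42.4 CPM with PBS (6 tested, 2 lower, 4 not past the threshold). Cholangiocyte markers summed to 4325 to 4643 CPM with LRG1 and 4446 to 4630 CPM with PBS, nearly all of it Spp1. Of the 3 tested, Sox9 was higher (log2 fold change 0.68), Krt19 was lower (log2 fold change -2.5) and Spp1 did not pass. Epcam and Krt7 had too few counts to test. Plasma and B cells, which express many ER folding genes highly, were represented by Sdc1, which hepatocytes express too, at 403 to 441 CPM with LRG1 and 415 to 419 CPM with PBS, and Ms4a1 had no count in any library. The part of other cells, or of the change in hepatocyte markers, in the members' differences was not tested.

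Some members share genomic sequence with other genes. By the GENCODE M21 annotation, exons of Atf5 overlap Il4i1 and Nup62 on the opposite strand, and those of Ddit3 overlap Mars. Nup62 averaged 79.8 ± 2.12 CPM with LRG1 and 76.6 ± 1.55 CPM with PBS (adjusted p = 0.288). Mars, an aminoacyl-tRNA synthetase gene, averaged 144 ± 6.41 CPM with LRG1 and 171 ± 13.3 CPM with PBS (adjusted p = 0.000225). Ppp1r15a, Ppp1r15b, Eif2ak3, Sec61a1, Pdia3, Derl2, Vcp, Syvn1, Manf and Pdia6 also overlap a gene on the opposite strand in part of their exons, and Manf overlaps Rbm15b on its own strand. Besides Vcp, shares of 50-base windows also found in another gene's transcript were 17.4% for Sec61b, 9.26% for Ero1lb, 8.01% for Selk and 5.56% for Derl1.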

How the data were processed

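Each deposited file holds the raw counts of 1 library, a whole number of reads for each gene symbol. The tools were bcl2fastq, TopHat2 and HTSeq with build mm9, per the submitters' processing notes. Not given in the sources used here were their versions, the annotation and the strand setting. Per the labels, libraries were stranded, poly(A)-selected and read from a single end. HTSeq summary rows were left out of library sizes: 8.96 to 10.3% of uniquely aligned reads lay in no gene and 0.258 to 0.28% were ambiguous, and 58.2 to 59.3% of the row totals were alignments without a unique position, so genes with near copies may have lost counts.

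Counts were tested for LRG1 against PBS, 3 libraries each, with edgeR 4.0.16 in R 4.3.3 (TMM scaling, filterByExpr with minimum count 10, quasi-likelihood F test, Benjamini-Hochberg adjustment over 12301 genes, threshold 0.05). These genes held 99.95% of gene counts. CPM were computed from the deposited counts. Standard errors (SE) and 95% intervals of log2 fold changes came from the F statistic. The fit was also run on simulated data with 200 changed genes. Far more genes passed in the real data, so that run does not test scaling or error control there. All pairs of replicates differed beyond sampling noise (chi-square per degree of freedom 2.93 to 4.17).

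The members, lists and tests were chosen with earlier results of these data known. Every member is accounted for; values per library are given for members that passed with a log2 fold change of at least 0.5 in size, the sensors, Xbp1, Atf4, Atf5 and Ddit3 and a few near the threshold, with further examples (Edem2, Pdia3 and Hspa5, Trib3, families and marker genes) chosen after their values were seen. Of each other list up to 4 tested genes with the smallest p are named, and Hspa5, Hsp90b1 and Dnajb9. Lengths and overlaps are from GENCODE M21 (GRCm38), promoters from RefSeq GRCm38.p6, matched by symbol; coordinates are of that build, not of mm9. Alternatives were other scalings and filters, DESeq2 1.42.0, limma-voom (limma 3.58.1), a replicate block and each library left out.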

Additional observations from a re-analysis of the deposited data

How the results depend on the processing

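Under 15 alternatives (3 other scalings, 2 other filters, DESeq2, limma-voom, a robust edgeR fit, a replicate block and each of 6 libraries left out), 9 to 10 members were higher and 10 to 11 lower, and 37 of 39 stayed on the same side of the threshold. Of these, 8 that did not pass (Canx, Creld2, Derl2, Eif2ak3, Os9, Sdf2l1, Selk and Xbp1) had log2 fold changes on both sides of 0. The exceptions were Derl1, lost without PBS replicate 2, and Syvn1, which passed without LRG1 replicate 3 and with total count scaling (log2 fold change 0.12, adjusted p = 0.0350); for both the cause was not tested. The number of all tested genes past the threshold lay between 5594 (DESeq2) and 6592 (no filter), and between 5630 and 6015 with a library left out. Other pathway genes gave 49 to 69 higher and 52 to 57 lower. Of these 191 genes, 149 kept their call throughout and 42 did not. DESeq2 and the stricter filter each left 1 translocon gene lower in place of 2. No scaling moved the median of all genes by 0.1. No member or other pathway gene that passed changed direction under any of the 15.

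Replicate numbers did not mark pairs: deviations of same-numbered libraries correlated at -0.12, -0.01 and -0.12, and no library correlated best with its own number. With the replicate number as a block, 5890 genes passed, with 9 members higher and 11 lower, and Kdelr1 did not pass (adjusted p = 0.0854). Levels under about 1 CPM, as for Creb3l1 in PBS and for Derl3, limit what can be seen at this depth.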

Other observations

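Further genes of the lists outside the 40 members, picked after their values were seen, are given here as values. Chac1, a glutathione-degrading enzyme and known target of ATF4 and CHOP, averaged 7.85 ± 0.623 CPM with LRG1 and 17.0 ± 1.31 CPM with PBS (SD, n = 3 each; log2 fold change -1.11, adjusted p = 1.38e-09 in edgeR). Slc7a11, the cystine importer that both ATF4 and NRF2 are known to drive, averaged 44.3 ± 5.73 CPM with LRG1 and 74.1 ± 5.68 CPM with PBS (log2 fold change -0.74). Gdf15, a secreted stress hormone, averaged 39.5 ± 0.961 CPM with LRG1 and 57.8 ± 2.39 CPM with PBS (log2 fold change -0.55). For all 3 genes every LRG1 library lay below every PBS library, as for 28.6% of all tested genes. All 3 kept their call under all 15 alternatives.

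Of the 3 kinases besides PERK that phosphorylate eIF2α, 2 were higher (all tested genes 25.5%) and Eif2ak1 did not pass (log2 fold change 0.06). Eif2ak2, the double-stranded RNA sensor PKR, averaged 133 ± 7.44 CPM with LRG1 and 109 ± 5.50 CPM with PBS (log2 fold change 0.29, adjusted p = 1.43e-05 in edgeR). Eif2ak4, the amino acid sensor GCN2, averaged 35.1 ± 1.52 CPM with LRG1 and 29.3 ± 0.772 CPM with PBS (log2 fold change 0.26, adjusted p = 0.00122). Both of these passed as higher under all 15 alternatives. Of the proteins that help secretory cargo leave the ER, Lman1, the partner of Mcfd2, averaged 115 ± 5.41 CPM with LRG1 and 133 ± 5.69 CPM with PBS (log2 fold change -0.21, adjusted p = 0.000459), while Mcfd2 itself was higher with LRG1.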
